A study of Rattus norvegicus with 24 samples.

Results

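The genes described are 10 imprinted genes: the growth regulators Igf2, H19, Dlk1, Meg3, Plagl1 and Cdkn1c, the hydrolase-like gene Mest, the zinc finger gene Peg3, and the neuronal genes Ndn and Snrpn. They were taken by gene name from the FPKM values of 24 RNA-Seq libraries, and 8 of the 10 had a row among the 23950 genes listed. H19 and Meg3, the long non-coding RNAs of the Igf2 and Dlk1 domains, had no row under those names and were not analysed here. The libraries came from the nucleus accumbens (NAc), the ventral part of the striatum and a centre of the reward pathway, of Sprague Dawley rat pups at postnatal day 14, with 4 pups from separate litters in each of 6 groups. F0 dams were gavaged with the opioid oxycodone (oxy) or with saline. In utero exposure (IUO) began at 10 mg/kg/day for 5 days, went up by 0.5 mg/kg/day for 10 days to 15 mg/kg/day, and was kept through mating, gestation and nursing until weaning. Postnatal exposure (PNO) was 15 mg/kg/day from birth of the pups until weaning, so that F1 pups met the drug through milk. F1 animals were never dosed themselves, and F1 pups picked at random were bred with males to give the F2 pups, whose 3 groups are named for what the F0 dam received. Saline (SAL) groups were the controls of each generation. The sex of the pups is not in the labels, each sample was a dissected piece of tissue, and each generation has its own SAL group that both oxy groups of that generation share.

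Imprinted genes are transcribed mainly from the copy inherited from the mother or mainly from the copy inherited from the father, a choice carried by DNA methylation that is laid down in the egg or sperm and maintained after fertilization. Many of them set fetal growth, placental supply and the maturation of the hypothalamus and other brain regions, and several are known for opposing roles, with paternally expressed genes favouring growth and maternally expressed genes restraining it. Because their marks are laid down in the germ line, they are often examined when an exposure of the parent is followed into the next generation. FPKM adds up the reads of both parental copies, so the share of each copy was not measured here.

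The upstream sequence of 8 of the 10 genes was in the RefSeq promoter table of rat build GRCr8, which holds the 250 bases before each start site. CpG dinucleotides, the sites of DNA methylation, numbered between 7 and 41 in the 9 windows of these genes, with a median of 11 against 5 over all 33469 promoters of that length. The hexamer TGCCGC, the methylated letters bound by the imprint keeper ZFP57, was searched on both strands and lay in 5 of the 9 windows (of Plagl1, Snrpn, Igf2, Dlk1 and Meg3) and in 8.91% of all promoters. The windows of 4 genes are shown for the genes whose values are described together, Peg3 with Plagl1 and Ndn with Snrpn, with each CpG in capitals. Peg3 lies at chr1:76130744-76130993, plus strand, Plagl1 at chr1:9297214-9297463, plus strand, Ndn at chr1:125260809-125261058, plus strand and Snrpn at chr1:120338920-120339169, minus strand.
Peg3: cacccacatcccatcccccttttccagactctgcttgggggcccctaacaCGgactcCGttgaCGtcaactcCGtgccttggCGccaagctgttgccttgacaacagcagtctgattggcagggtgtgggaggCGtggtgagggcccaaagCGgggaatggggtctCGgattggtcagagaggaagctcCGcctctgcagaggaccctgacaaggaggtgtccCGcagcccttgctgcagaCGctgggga
Plagl1: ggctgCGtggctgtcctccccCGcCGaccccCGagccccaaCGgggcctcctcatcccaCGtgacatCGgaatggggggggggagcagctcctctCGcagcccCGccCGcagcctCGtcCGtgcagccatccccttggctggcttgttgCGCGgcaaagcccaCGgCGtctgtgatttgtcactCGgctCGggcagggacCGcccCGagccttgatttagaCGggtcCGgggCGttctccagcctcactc
Ndn: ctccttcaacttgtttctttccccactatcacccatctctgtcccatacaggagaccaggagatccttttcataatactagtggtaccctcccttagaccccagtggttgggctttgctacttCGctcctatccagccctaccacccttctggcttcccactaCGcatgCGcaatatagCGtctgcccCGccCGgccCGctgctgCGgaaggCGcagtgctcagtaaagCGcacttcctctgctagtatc
Snrpn: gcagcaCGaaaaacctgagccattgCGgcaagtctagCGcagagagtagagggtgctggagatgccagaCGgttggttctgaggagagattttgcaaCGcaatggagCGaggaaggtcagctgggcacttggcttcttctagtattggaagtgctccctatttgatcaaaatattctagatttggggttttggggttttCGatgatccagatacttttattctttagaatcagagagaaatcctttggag
The Plagl1 window held 23 CpG and 70.0% G or C, more than the 11 CpG and 62.4% of Peg3. Ndn had 10 CpG and Snrpn 7, at 55.2% and 46.4% G or C. The Dlk1 window was the richest, with 41 CpG, more than in 99.0% of all promoters. A match of letters describes the window and no more.

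Summed FPKM per library lay between 535866 and 766781, and the number of reads behind each library is unknown, so no counting error can be given. Markers of striatal projection neurons (Drd1, Drd2, Penk and 7 others) were present in every library, with summed FPKM between 418 and 1365, as the labelled tissue would have. Markers of neighbouring tissue were present as well and varied. The 10 choroid plexus genes, Ttr among them, summed to between 3828 and 12293 FPKM in 5 libraries (F1 SAL replicate 1, F1 PNO replicate 3, F1 IUO replicate 3, F2 PNO replicate 4 and F2 IUO replicate 1) and to at most 1001 in the other 19. F2 PNO replicate 4 also held 8 hormone and lineage genes of the anterior pituitary at a summed 6746 FPKM, against 2.63 to 17.9 in the other 23. This list was written after the values had been seen. F2 PNO replicate 1 had the lowest median correlation with other groups (0.902) and the lowest upper-quartile FPKM (8.85). Y-linked genes summed to between 27.2 and 36.1 FPKM in F1 SAL and to at most 2.57 in F2 SAL, so the sexes were not balanced between groups. In whole tissue, fewer cells of a type and less RNA per cell cannot be told apart.

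Levels per length differed widely between the 8 genes. Ndn (ENSRNOG00000010146), which encodes a MAGE family protein of postmitotic neurons, had the highest mean at 292 FPKM over the 24 libraries (216 to 384). Snrpn (ENSRNOG00000059764), a spliceosome protein gene, followed at 154 (88.4 to 327) and Peg3 (ENSRNOG00000014791), a zinc finger gene of maternal behaviour and growth, at 67.8 (45.7 to 91.0). Ndn, Snrpn, Peg3 and Igf2 kept this order in 24 of 24 libraries. Igf2 (ENSRNOG00000020369), the fetal growth factor, had a mean of 21.3 (6.31 to 56.3), Cdkn1c (ENSRNOG00000059500), an inhibitor of cyclin-dependent kinases, 15.6 (6.27 to 34.1) and Mest (ENSRNOG00000048088), a membrane hydrolase-like gene, 12.2 (5.90 to 21.9). Igf2 exceeded Cdkn1c in 15 of 24 libraries and Cdkn1c exceeded Mest in 15 of 24, so these neighbours were not separated beyond their spread. Dlk1 (ENSRNOG00000019584), a transmembrane Notch ligand relative that restrains differentiation, had a mean of 9.08 (2.55 to 77.9), and Plagl1 (ENSRNOG00000025587), a zinc finger regulator of other imprinted genes, 2.28 (0.53 to 5.78).

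Spread within groups followed another order. The SD of log2(FPKM + 0.1) within groups was 0.94 for Igf2, 0.91 for Dlk1, 0.74 for Plagl1 and 0.62 for Cdkn1c, larger than for 94.2%, 93.8%, 90.6% and 86.3% of the 13677 genes with a mean of at least 1 FPKM. Mest (0.42) and Snrpn (0.36) lay nearer to the median of those genes (0.30). Peg3 (0.26) and Ndn (0.16) varied less, and 9.75% of genes varied less than Ndn. The growth regulators were thus the members for which 4 libraries a group gave the widest intervals.

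**Figure D1:**
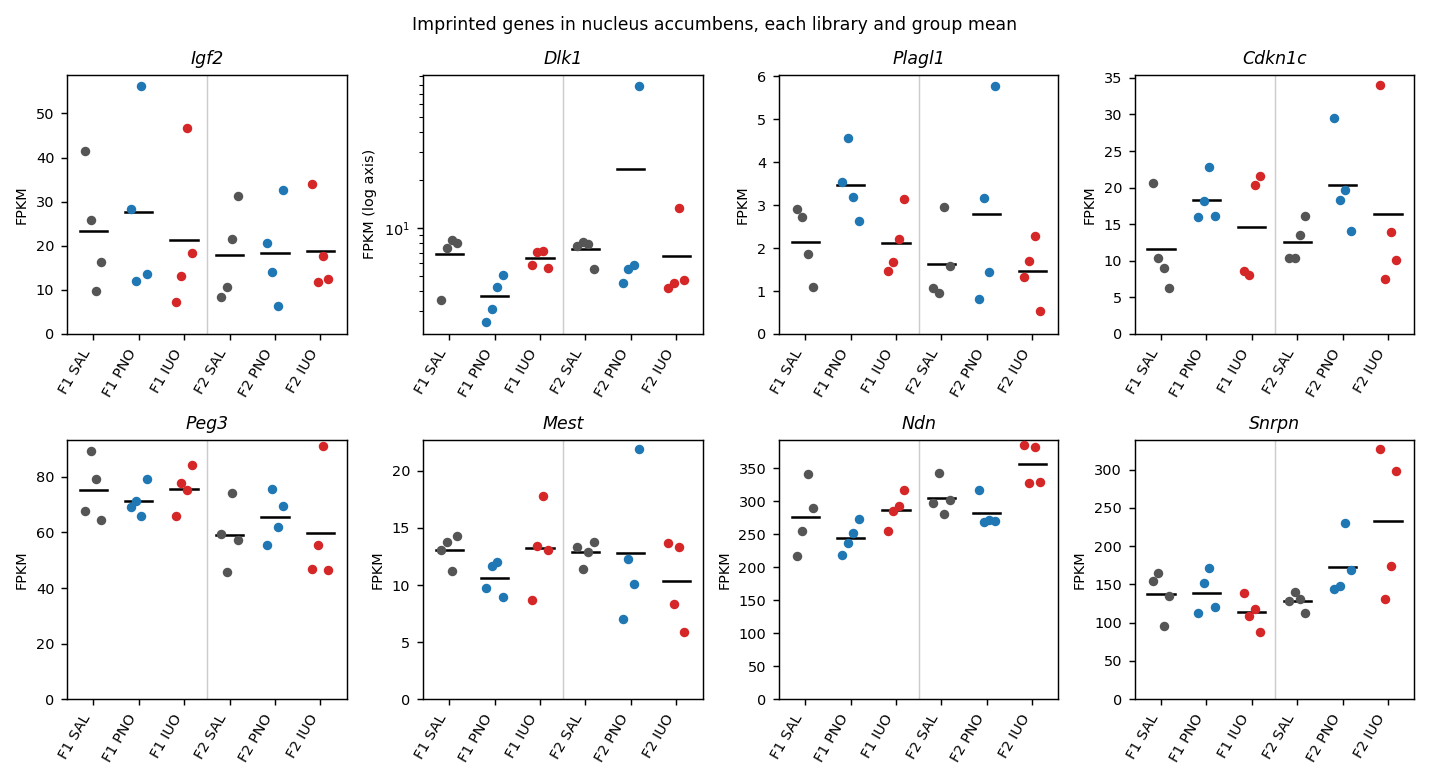
FPKM of the 8 imprinted genes in each of 24 libraries (points) by exposure and generation, with the group mean as a line; the Dlk1 axis is logarithmic. F2 PNO replicate 4 stands at 77.9 FPKM of Dlk1, while the other 23 libraries lie between 2.55 and 13.4.

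Each pair of groups was compared with limma on log2(FPKM + 0.1), and no imprinted gene of the list reached a Benjamini-Hochberg adjusted p under 0.05 in any of the 10 comparisons. The counts given are therefore of unadjusted p under 0.05, read beside the share of all genes tested that passed the same rule. In F1, 0 of 8 passed between IUO and SAL, where 3.91% of all genes did and 0% passed after adjustment. F1 PNO against SAL had 4 of 8 pass (Dlk1 and Mest lower, Plagl1 and Cdkn1c higher in PNO), against 13.9% of all genes and 0% after adjustment. Between F1 IUO and F1 PNO, 2 of 8 passed (Dlk1 higher, Plagl1 lower in IUO), against 16.5% and 0.133%. In F2, 1 of 8 passed between IUO and SAL (Snrpn, 8.49% and 0% of all genes), 2 of 8 between PNO and SAL (Cdkn1c and Snrpn, 10.8% and 0.00576%) and 1 of 8 between IUO and PNO (Ndn, 7.07% and 0%). The median log2 fold change of the 8 genes lay between -0.23 (F2 IUO against PNO) and 0.29 (F2 PNO against SAL), beside -0.01 and -0.08 over all genes. Both ends rest on F2 PNO replicate 4: without it the medians were 0.09 and -0.02 (0.05 and -0.15 over all genes), and the genes past an unadjusted p of 0.05 in F2 PNO against SAL were Dlk1 and Cdkn1c, 2 of 8 beside 16.1% of all genes. In F2 IUO against PNO it was Ndn, 1 of 8 beside 8.68%. Groups that do not overlap were found for 0 genes in F1 IUO against SAL (2.54% of all genes), 0 in F1 PNO against SAL (8.27%), 1 in F1 IUO against PNO (Dlk1, 10.5%), 0 in F2 IUO against SAL (5.11%), 1 in F2 PNO against SAL (Snrpn, 7.01%) and 1 in F2 IUO against PNO (Ndn, 4.74%). With 4 against 4 libraries the exact permutation test can go no lower than 0.0286. The half-width of the 95% interval in these comparisons ranged from 0.23 (Peg3, F1 IUO against PNO) to 1.91 (Dlk1, F2 IUO against PNO) on the log2 scale.

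**Figure D2:**
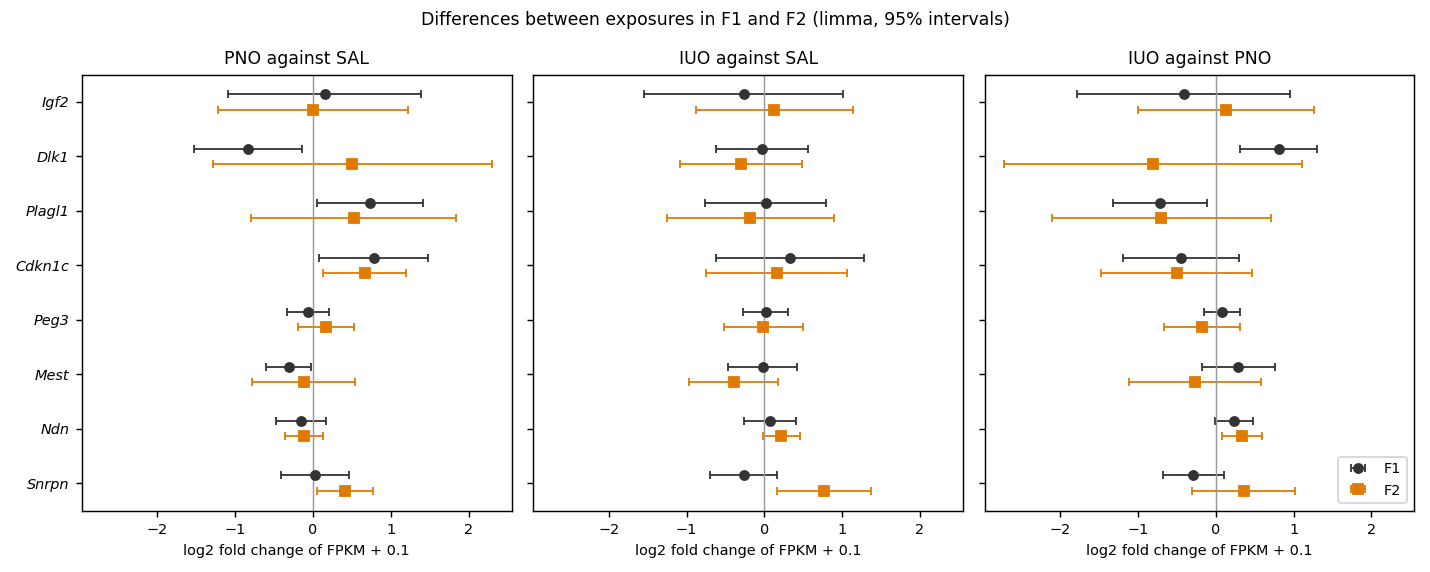
Log2 fold change with 95% limma intervals for the 8 genes in F1 (circles) and F2 (squares), for PNO against SAL, IUO against SAL and IUO against PNO. Cdkn1c is the gene whose interval lies above 0 in both generations in PNO against SAL.

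Igf2 encodes the paternally expressed insulin-like growth factor made by many fetal tissues and, after birth, mainly by the choroid plexus and the meninges. It was at 41.4, 25.9, 9.78 and 16.3 FPKM in the F1 SAL libraries, at 28.3, 11.96, 56.3 and 13.6 in F1 PNO and at 7.31, 13.1, 46.7 and 18.3 in F1 IUO. In F2 it was at 8.44, 10.7, 21.4 and 31.2 in SAL, at 20.7, 14.1, 6.31 and 32.6 in PNO and at 34.0, 11.7, 17.7 and 12.4 in IUO. All groups overlapped, with means ± SD from 17.9 ± 10.5 (F2 SAL, n = 4) to 27.6 ± 20.5 (F1 PNO, n = 4). The log2 fold changes between exposures ranged from -0.42 to 0.15, or to 0.48 in F2 IUO against PNO without F2 PNO replicate 4, with a 95% interval in F1 PNO against SAL of -1.09 to 1.39. The 5 libraries with choroid plexus transcripts held the 5 highest Igf2 values, 32.6 to 56.3, and the other 19 lay between 6.31 and 31.2. Within those 19, Igf2 still moved with the score of 10 meningeal and fibroblast genes (r = 0.805), and less closely with the choroid plexus score (r = 0.483). Over all 24 libraries its relation to the meningeal score had r = 0.82 and rho = 0.80 (permutation p = 1e-05 and 2e-05, adjusted 0.00028 and 0.00056 over the 56 gene and score pairs computed, of which 6 had an adjusted p under 0.05), r = 0.82 with group means removed and 0.77 without the 2 libraries farthest from the median score. The part of these tissues in the Igf2 values of any group was not tested beyond these values.

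**Figure D3:**
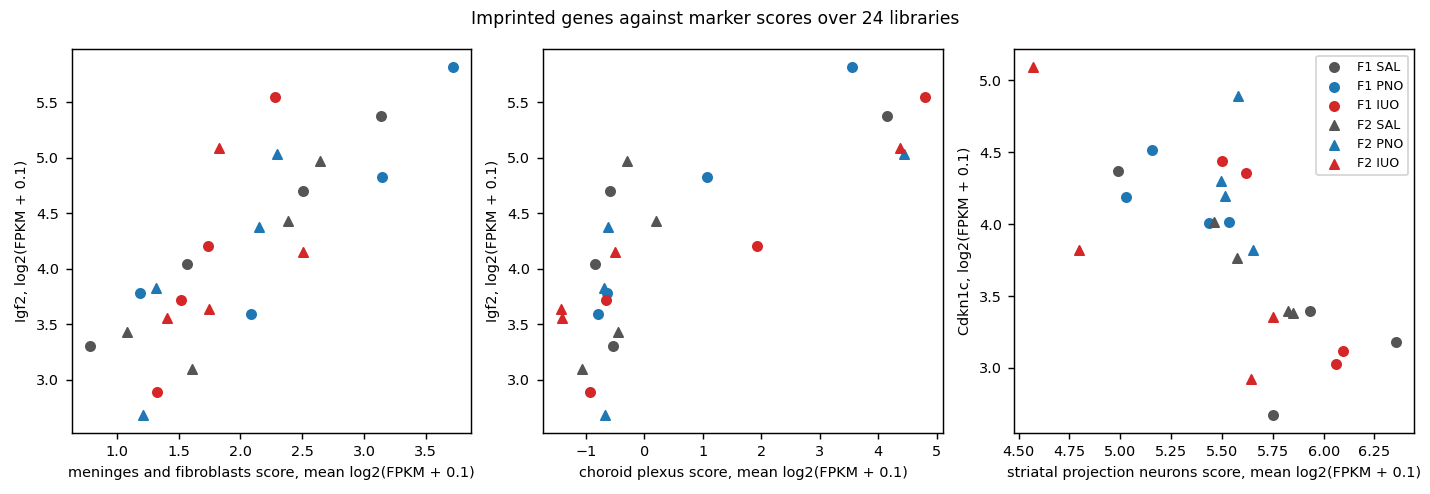
Log2(FPKM + 0.1) of Igf2 against the meningeal and choroid plexus marker scores and of Cdkn1c against the striatal projection neuron score, 1 point per library, with F1 as circles and F2 as triangles. Igf2 is higher where either score is higher, and Cdkn1c is lower where the striatal score is higher.

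Dlk1, paternally expressed, is a marker of undifferentiated cells and of endocrine tissue. It was at 3.54, 7.51, 8.34 and 8.07 FPKM in F1 SAL, at 2.55, 3.08, 4.23 and 5.07 in F1 PNO and at 5.82, 7.09, 7.15 and 5.63 in F1 IUO. All 4 PNO libraries lay below all 4 IUO libraries, while SAL replicate 1 lay inside the PNO range. Mean Dlk1 was 3.73 ± 1.13 in PNO, 6.87 ± 2.24 in SAL and 6.42 ± 0.81 in IUO (SD, n = 4 each). The log2 fold change was 0.81 (SE 0.22) in F1 IUO against PNO, with a limma Benjamini-Hochberg adjusted p of 0.146 and an exact permutation p of 0.0286. It was -0.84 (SE 0.31) in F1 PNO against SAL, with a limma adjusted p of 0.293 and an exact permutation p of 0.0857. Between F1 IUO and F1 SAL the log2 difference was -0.03 (95% interval -0.62 to 0.57). Between F1 IUO and PNO, the score of 11 hypothalamic genes differed by 1.81 (exact permutation p = 0.0286), with IUO above PNO. Summed, those genes lay between 75.0 and 184 FPKM in IUO and between 11.99 and 25.9 in PNO. The score itself lay between 0.80 and 2.04 in IUO and between -0.76 and 0.20 in PNO, so a fit with both cannot fully separate score and group. Over 24 libraries Dlk1 and this score had r = 0.33 and rho = 0.34 (adjusted permutation p = 0.375 and 0.279). It was r = 0.29 with group means removed and 0.16 without the 2 farthest libraries. The genes of this score include Pomc, which was at 818 FPKM in F2 PNO replicate 4. With that score as a covariate the Dlk1 difference was 0.25 (95% interval including 0), and in F1 PNO against SAL, where the score was lower by 0.64 (exact permutation p = 0.0571), the difference became -0.54, also with an interval including 0. Other scores moved it as well: the PNO and SAL difference was -0.47 with the thalamic and -0.43 with the striatal score as a covariate, both missing an unadjusted p of 0.05. The IUO and PNO difference was 0.69 with the striatal score, which missed it, and 0.82 with the thalamic score, which passed it. Over 24 libraries Dlk1 and the striatal score had r = 0.24 and rho = 0.56 (adjusted permutation p = 0.590 and 0.0492). The PNO and SAL difference also lost its unadjusted p under 0.05 without F1 SAL replicate 2, 3 or 4 or F1 PNO replicate 1 or 2, at values from -0.67 to -0.77.

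In F2, Dlk1 was at 7.74, 8.10, 7.94 and 5.53 FPKM in SAL, at 4.48, 5.50, 5.80 and 77.9 in PNO and at 4.19, 4.48, 13.4 and 4.67 in IUO. PNO replicate 4, the library with pituitary transcripts, stood far above the rest: it had 4682 FPKM of the growth hormone gene Gh1, against at most 4.79 elsewhere, 818 of Pomc against 1.09 to 5.38, and 150 of prolactin (Prl) against at most 0.61. With that library the log2 difference of F2 PNO against SAL was 0.51 (95% interval -1.29 to 2.30), and without it -0.46 (SE 0.20, 95% interval -0.91 to -0.01), with a limma adjusted p of 0.299. The remaining 3 PNO libraries had a mean of 5.26 ± 0.69 (SD, n = 3), and 1 of them lay above the lowest SAL library. Mean Dlk1 was thus lower in PNO than in SAL in F1, and in F2 with that library left out. The difference between the generations' effects was 0.37 (95% interval -0.48 to 1.22) without it. In F2 IUO against PNO the log2 difference went from -0.80 with that library to 0.16 without it. In F2 IUO against SAL it was -0.30 (95% interval -1.09 to 0.49).

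**Figure D4:**
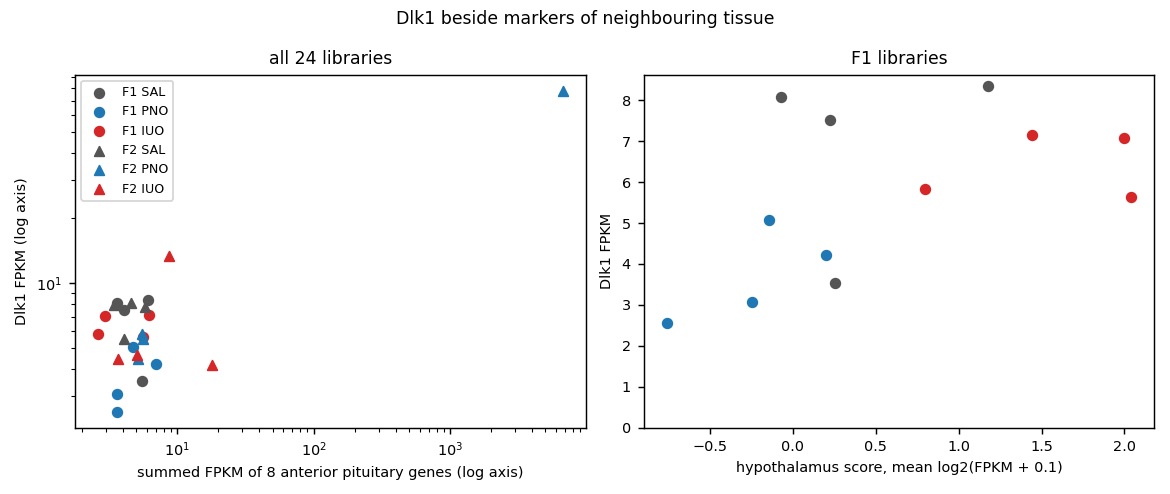
Left, Dlk1 FPKM against the summed FPKM of 8 anterior pituitary genes in 24 libraries, both on log axes. Right, Dlk1 FPKM against the hypothalamus score in the 12 F1 libraries. F2 PNO replicate 4 lies alone at 6746 pituitary FPKM and 77.9 of Dlk1.

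Plagl1, a paternally expressed zinc finger factor that governs growth genes, was at 2.90, 2.72, 1.86 and 1.10 FPKM in F1 SAL, at 3.55, 4.56, 3.19 and 2.62 in F1 PNO and at 1.46, 1.68, 2.22 and 3.14 in F1 IUO. The 3 highest values were in PNO, whose lowest library overlapped both other groups. Its log2 fold change was 0.73 (SE 0.30) in F1 PNO against SAL, with a limma adjusted p of 0.326, and -0.72 (SE 0.27) in F1 IUO against PNO, with a limma adjusted p of 0.236. Exact permutation gave p = 0.0857 and 0.0571. The first of these lost its unadjusted p under 0.05 without F1 SAL replicate 3 or 4 or F1 PNO replicate 1, 2 or 3 (0.46 to 0.77), and the second without F1 PNO replicate 1 or 2 or F1 IUO replicate 1 or 2 (-0.57 to -0.70). With the score of 6 thalamic genes as a covariate they were 0.14 and -0.14. With the striatal score they were 0.51 and -0.03, and with the hypothalamic score 0.75 and -1.20, none with an unadjusted p under 0.05. Both also missed it with the meningeal score as a covariate and with all 24 libraries in 1 fit. The thalamic score was 1.28 higher in F1 PNO than in SAL (exact permutation p = 0.114) and 1.29 lower in IUO than in PNO (0.0857). Over 24 libraries Plagl1 and the thalamic score had r = 0.52 and rho = 0.47 (adjusted permutation p = 0.0733 and 0.122). The thalamic and striatal covariates were chosen after the values had been seen. The part of neighbouring tissue in Plagl1 was not tested beyond these values. In F2, where the thalamic score differed by -0.04 between PNO and SAL, Plagl1 was at 1.07, 0.96, 2.95 and 1.58 in SAL, at 0.81, 3.16, 1.45 and 5.78 in PNO and at 1.33, 1.70, 2.28 and 0.53 in IUO. The F2 groups overlapped throughout, with a log2 difference of 0.52 (95% interval -0.80 to 1.84) for PNO against SAL and 0.07 without PNO replicate 4.

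Cdkn1c, the maternally expressed inhibitor that halts the cell cycle and restrains growth, was at 20.6, 10.4, 8.95 and 6.27 FPKM in F1 SAL, at 16, 18.2, 22.8 and 16.1 in F1 PNO and at 8.58, 8.05, 20.4 and 21.6 in F1 IUO. In F2 it was at 10.3, 10.4, 13.5 and 16.1 in SAL, at 29.6, 18.3, 19.6 and 14.0 in PNO and at 34.1, 7.49, 14.0 and 10.1 in IUO. In F1, SAL replicate 1 lay among the PNO libraries and the other 3 SAL libraries lay below all of them. In F2, PNO replicate 4 lay below SAL replicate 4, and the other PNO libraries lay above all of SAL. Mean Cdkn1c was 18.3 ± 3.20 in PNO and 11.6 ± 6.26 in SAL in F1, and 20.4 ± 6.59 and 12.6 ± 2.77 in F2 (SD, n = 4 each), ratios of 1.58 and 1.62. On the log2 scale this was 0.78 (SE 0.31) in F1, with a limma adjusted p of 0.313, and 0.66 (SE 0.24) in F2, with a limma adjusted p of 0.407. Exact permutation gave p = 0.114 in F1 and 0.0571 in F2. The difference between the generations was -0.12 (95% interval -1.01 to 0.78). In F1 the unadjusted p under 0.05 was lost without SAL replicate 2, 3 or 4 or PNO replicate 2 or 3 (0.54 to 0.78), and in F2 without SAL replicate 1 or 2 (both 0.58). Without F2 PNO replicate 4 the F2 value was 0.82, with a limma adjusted p of 0.186.

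Cdkn1c also moved with tissue scores. Over 24 libraries it had r = -0.70 and rho = -0.73 with the score of striatal projection neurons (adjusted permutation p = 0.00336 and 0.00168), r = -0.78 with group means removed and r = -0.70 without the 2 farthest libraries. It had r = 0.57 and rho = 0.55 with the thalamic score (adjusted permutation p = 0.0345 and 0.0492), and r = 0.49 without the 2 farthest. With the choroid plexus score it had r = 0.58 and rho = 0.60 (adjusted permutation p = 0.0345 and 0.0311), and r = 0.64 without the 2 farthest. The striatal score was lower in PNO than in SAL by 0.47 in F1 and by 0.12 in F2 (exact permutation p = 0.200 and 0.343). The thalamic score was 1.28 higher in F1 and 0.04 lower in F2. With the striatal score as a covariate, Cdkn1c differed by 0.38 in F1 and by 0.47 in F2, neither with an unadjusted p under 0.05. With the thalamic score it differed by 0.21 in F1, which missed that threshold, and by 0.67 in F2, which passed it. The 5 libraries with choroid plexus transcripts had Cdkn1c between 14.0 and 34.1 FPKM, and the other 19 between 6.27 and 29.6. The striatal and thalamic covariates were chosen after the values had been seen. In F1 PNO against SAL an unadjusted p of 0.05 was also missed with the Y-linked or the hypothalamic score as a covariate. With all 24 libraries in 1 fit it was missed in both generations. Between IUO and SAL the log2 difference of Cdkn1c was 0.33 in F1 and 0.16 in F2, with all groups overlapping.

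Mest, a paternally expressed gene of mesoderm and growing tissue, was at 13.1, 13.8, 11.2 and 14.3 FPKM in F1 SAL, at 9.71, 11.7, 12.01 and 8.95 in F1 PNO and at 8.72, 13.5, 17.8 and 13.1 in F1 IUO. PNO replicates 2 and 3 lay above the lowest SAL library, and the other 2 PNO libraries lay below all of SAL. The log2 fold change in F1 PNO against SAL was -0.31 (SE 0.13), with a limma adjusted p of 0.327 and an exact permutation p of 0.0857. It lost its unadjusted p under 0.05 without SAL replicate 1, 2 or 4 or PNO replicate 1 or 4 (-0.24 to -0.31), and under 6 of 12 other settings, upper-quartile rescaling among them. In F2, Mest was at 13.4, 11.4, 12.9 and 13.7 in SAL, at 7.05, 12.3, 10.1 and 21.9 in PNO and at 13.7, 8.33, 13.4 and 5.90 in IUO, with PNO replicate 4 the highest of all 24 libraries. The F2 PNO and SAL difference was -0.12 with that library and -0.42 (SE 0.20, 95% interval -0.87 to 0.04) without it. The 5 libraries with choroid plexus transcripts had Mest between 12.01 and 21.9 FPKM, and the other 19 between 5.90 and 14.3.

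Peg3 was at 67.7, 89.1, 79.4 and 64.3 FPKM in F1 SAL, at 69.1, 71.5, 65.7 and 79.4 in F1 PNO and at 65.7, 77.6, 75.1 and 84.2 in F1 IUO. In F2 it was at 59.4, 45.7, 74.1 and 57.1 in SAL, at 55.5, 75.5, 61.9 and 69.7 in PNO and at 47.0, 55.5, 91.0 and 46.3 in IUO. Every pair of exposures overlapped, and the 6 log2 differences lay between -0.18 and 0.16. Peg3 gave the narrowest intervals of the list in F1, where IUO against SAL was 0.02 (95% interval -0.27 to 0.30). Peg3 and Plagl1 had the 1 Pearson correlation of 28 pairs with an adjusted p under 0.05: r = 0.67 and rho = 0.63 over 24 libraries (permutation p = 0.00029 and 0.00119, adjusted 0.00812 and 0.0169 over the 28), r = 0.66 with group means removed and 0.53 without the 2 farthest libraries. By rank, 3 pairs passed, the others being Plagl1 with Ndn (rho = -0.63, r = -0.54, adjusted permutation p = 0.0169 and 0.0501) and Igf2 with Cdkn1c (rho = 0.57, r = 0.51, adjusted permutation p = 0.0404 and 0.0581). With group means removed, r was -0.27 for Plagl1 with Ndn and 0.61 for Igf2 with Cdkn1c. Plagl1 and Mest had r = 0.71 with group means removed and rho = 0.21 over the 24 libraries. The upstream windows of Peg3 and Plagl1, printed above, held 11 and 23 CpG, and of these the ZFP57 hexamer lay in that of Plagl1 alone.

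Ndn and Snrpn belong to the imprinted region that is lost in Prader-Willi syndrome, and both are expressed from the paternal copy. Ndn, which restrains proliferation and supports the survival of neurons, was at 216, 254, 341 and 290.0 FPKM in F1 SAL, at 218, 236, 252 and 273 in F1 PNO and at 255, 286, 292 and 317 in F1 IUO. In F2 it was at 296, 342, 281 and 302 in SAL, at 317, 268, 271 and 269 in PNO and at 384, 327, 382 and 329 in IUO. All 4 F2 IUO libraries lay above all 4 F2 PNO libraries, and 1 SAL library lay inside the IUO range. Mean Ndn in F2 was 356 ± 31.9 in IUO, 282 ± 23.96 in PNO and 305 ± 26.3 in SAL (SD, n = 4 each). F2 IUO against PNO differed by 0.34 (SE 0.11) on the log2 scale, with a limma adjusted p of 0.604 and an exact permutation p of 0.0286. It was 0.23 (95% interval -0.02 to 0.48) in F1. The F2 value missed an unadjusted p of 0.05 with upper-quartile rescaling, at 0.32, and with the striatal score as a covariate, at 0.26.

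Snrpn was at 155, 166, 95.3 and 135 FPKM in F1 SAL, at 112, 152, 171 and 120.1 in F1 PNO and at 138, 109, 117 and 88.4 in F1 IUO. In F2 it was at 128, 139.8, 131 and 113 in SAL, at 143, 148, 230.0 and 169 in PNO and at 327, 130.3, 175 and 299 in IUO. The F2 PNO libraries lay above all of F2 SAL, whereas IUO replicate 2 lay inside the SAL range and IUO replicates 1 and 4 lay above every other library of the series. Mean Snrpn in F2 was 128 ± 11.2 in SAL, 173 ± 39.9 in PNO and 233 ± 95.1 in IUO (SD, n = 4 each). Its log2 fold change was 0.77 (SE 0.27) in F2 IUO against SAL, with a limma adjusted p of 0.550 and an exact permutation p of 0.0857. It was 0.41 (SE 0.16) in F2 PNO against SAL, with a limma adjusted p of 0.422 and an exact permutation p of 0.0286. The first was 0.61 without IUO replicate 4, where it missed an unadjusted p of 0.05, 0.66 with the striatal score as a covariate, which also missed it, and 1.23 with the Y-linked score, which passed it. The second missed it without SAL replicate 1 or 4 or PNO replicate 3 or 4 (0.26 to 0.41). These 2 comparisons share the F2 SAL libraries. In F1 the IUO and SAL difference was -0.27 (95% interval -0.70 to 0.17).

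Snrpn shares a bicistronic transcript with Snurf, whose small protein is encoded upstream on the same RNA, and the files list both, so reads can be split between the rows. Snurf was at 454, 415, 515 and 552 FPKM in F2 SAL, at 502, 476, 358 and 521 in PNO and at 396, 525, 445 and 343 in IUO. The 2 IUO libraries with the highest Snrpn had the lowest 2 Snurf values of their group, and PNO replicate 3, highest in Snrpn, was lowest in Snurf. In F1 IUO, replicate 1 was highest in Snrpn and lowest in Snurf. In F1 SAL, however, replicate 2 was highest and replicate 3 lowest in both rows. The Snrpn row made up 17.0% to 25.2% of the 2 rows together in F2 SAL, 22.2% to 39.1% in PNO and 19.9% to 46.6% in IUO. Added together, the rows were at 612 ± 52.0 in F2 SAL, 637 ± 42.7 in PNO and 660 ± 44.5 in IUO (SD, n = 4 each), with log2 differences from SAL of 0.11 for IUO (exact permutation p = 0.257) and 0.06 for PNO (0.486). The value of the Snrpn row is for this reason uncertain.

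**Figure D5:**
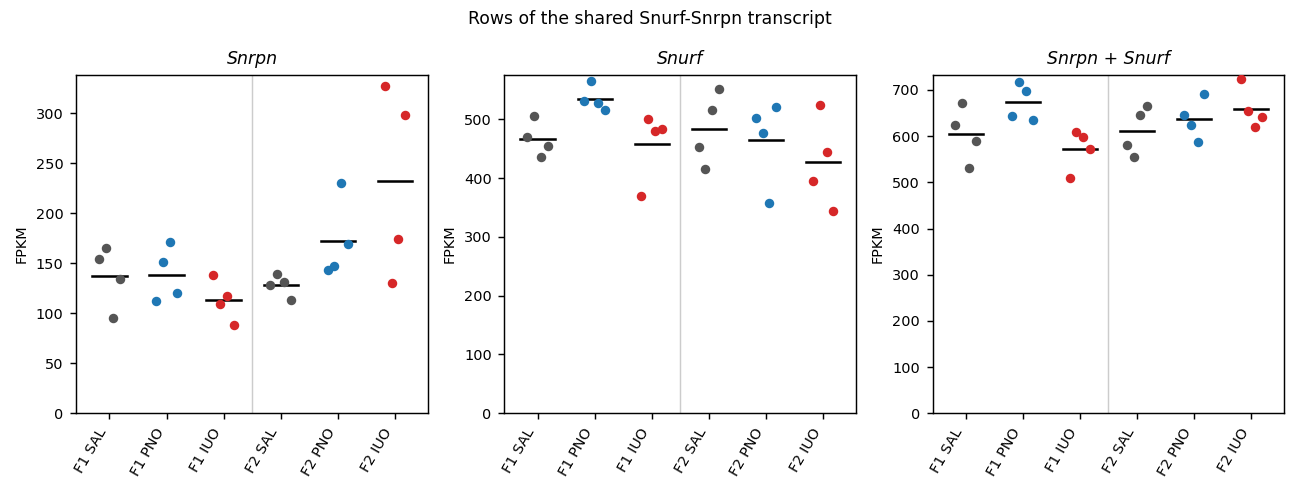
FPKM of the Snrpn row, the Snurf row and their sum in each library, with group means as lines and axes from 0. Snrpn is spread from 130.3 to 327 in F2 IUO, while the sum lies between 619 and 723 there and between 555 and 665 in F2 SAL.

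Whether a difference in F1 differed from that in F2 was tested as an interaction. For IUO against SAL, 1 of 8 genes had an unadjusted p under 0.05, beside 5.15% of all genes and 0% after adjustment. It was Snrpn, whose difference was larger in F2 by 1.03 (SE 0.35), with a limma adjusted p of 0.924. Reads of this row can be split with Snurf, and how far that moved this value was not tested. For PNO against SAL, 0 of 8 did (4.06% of all genes, 0% adjusted), and for IUO against PNO, 0 of 8 (5.76%, 0% adjusted). The intervals remain wide, up to 2.03 either side for Dlk1.

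A difference carried from F1 to F2 would have the same sign in both generations, whose libraries are separate. Between PNO and SAL, 5 of 8 genes had the same sign in F1 and F2, beside 67.2% of the 16994 genes tested in both. Cdkn1c was the 1 of 8 with an unadjusted p under 0.05 in the same direction in both generations, as were 2.3% of all genes. Without F2 PNO replicate 4, 6 of 8 had the same sign (68.9% of all genes), and Dlk1 joined Cdkn1c, 2 of 8 beside 4.15% of all genes. Between IUO and SAL, 4 of 8 had the same sign (53.9% of all genes) and 0 of 8 passed in both (0.394%), and between IUO and PNO 3 of 8 had the same sign (58.7%) and 0 of 8 passed in both (1.07%). Without that library the IUO and PNO counts were 5 of 8 (63.8%) and 0 of 8 (1.92%), since Dlk1 and Mest changed sign in F2.

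Over the 3 exposures, Ndn, Peg3 and Snrpn differed between the generations at an unadjusted p under 0.05, 3 of 8 genes, beside 19.7% of all genes and 0.0176% after adjustment. Ndn was higher in F2 by 0.23 (SE 0.07), with a limma adjusted p of 0.141. Peg3 was lower in F2 by 0.29 on the log2 scale (log2 difference -0.29, SE 0.10), with a limma adjusted p of 0.164. Snrpn was higher in F2 by 0.40 (SE 0.16), with a limma adjusted p of 0.194. Reads of the Snrpn row can be split with Snurf here as well, and how far that moved this value was not tested. Added together, the Snrpn and Snurf rows had means of 604, 673.5 and 572 FPKM in F1 SAL, PNO and IUO. In F2 they had means of 612, 637 and 660, and this sum was not tested between the generations. All 3 genes kept p under 0.05 without any of the 24 libraries in turn and under the 6 other settings run. None of those 6 settings held a tissue score as a covariate, so dependence on neighbouring tissue was not tested here. Generation and any difference in how the 2 sets of tissue were collected cannot be told apart.

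Among 56 further imprinted genes, 48 had a row and 45 to 47 were tested in each comparison. In F1 IUO against SAL, 1 of 46 had an unadjusted p under 0.05 (Ppp1r9a, log2 0.40), and so did 1 of 12 genes of the IGF system (Igfbp6, log2 0.81) and 0 of 7 genes that maintain imprints, beside 3.91% of all genes. In F1 PNO against SAL, 7 of 47 had an unadjusted p under 0.05, 6 lower and 1 higher in PNO, a share near the 13.9% of all genes. In F1 IUO against PNO it was 8 of 46, near the 16.5% of all genes, and 1 of them, Ppp1r9a, passed adjustment, as did 0.133% of all genes. In F2 PNO against SAL it was 5 of 45 and in F2 IUO against SAL 3 of 45, also near the background, and in F2 IUO against PNO it was 0 of 45. Ppp1r9a, an actin-binding scaffold of dendritic spines, was at 9.41, 8.30, 9.02 and 11.6 FPKM in F1 PNO and at 15.8, 17.6, 20.0 and 20.3 in F1 IUO. Its groups did not overlap, as for 10.5% of all genes, with a log2 fold change of 0.94 (SE 0.14) and a limma adjusted p of 0.0477. Ppp1r9a was not followed with covariates, other settings or libraries left out. Between these groups the hypothalamic score differed by 1.81, the striatal by 0.53 and the thalamic by -1.29 (exact permutation p = 0.0286, 0.0571 and 0.0857). In F2 the same gene ranged from 1.37 to 13.4 in PNO and from 2.57 to 10.4 in IUO, which overlapped.

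Magel2, a ubiquitin ligase regulator next to Ndn in the RefSeq order with no gene between them, was the 1 gene of this wider list past an unadjusted p of 0.05 in the same direction in both generations, 1 of 45 beside 2.3% of all genes, a share near the background. It was at 5.02, 6.77, 9.61 and 6.10 FPKM in F1 SAL and at 3.64, 4.54, 3.09 and 5.00 in F1 PNO, and at 6.73, 5.09, 8.16 and 5.87 in F2 SAL and at 1.96, 4.15, 4.33 and 4.81 in F2 PNO. All PNO libraries lay below all SAL libraries in each generation. Groups of PNO and SAL did not overlap for 8.27% of all genes in F1 and for 7.01% in F2. The share of all genes without overlap in both generations was not computed. Magel2 differed by -0.73 (SE 0.22) in F1 and by -0.80 (SE 0.29) in F2 on the log2 scale, with limma adjusted p of 0.245 and 0.408. Ndn itself differed between PNO and SAL by -0.16 in F1 and -0.12 in F2, with intervals that include 0. In IUO, Magel2 was at 5.12 to 6.32 in F1, above all of F1 PNO, and spread from 1.85 to 8.50 in F2. Magel2 was not followed with tissue scores as covariates. The hypothalamic score differed by -0.635 in F1 PNO against SAL (exact permutation p = 0.0571) and by -0.107 in F2 PNO against SAL. In F1 IUO against PNO it differed by 1.81 (exact permutation p = 0.0286). The part of neighbouring tissue in Magel2 was not tested.

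Further genes passed that threshold against SAL in F1 or in F2. Zim1, a zinc finger gene near Peg3, was at 1.03, 0.99, 1.62 and 1.72 FPKM in F1 SAL, at 0.56, 0.51, 0.46 and 0.46 in F1 PNO and at 1.92, 0.75, 1.15 and 0.76 in F1 IUO. It was lower in PNO than in SAL (log2 -1.23, SE 0.25, limma adjusted p 0.231) and the interval of its F2 counterpart included 0 (log2 -0.41). Dio3, which inactivates thyroid hormone and lies in the Dlk1 domain, was at 0.80 to 1.52 in F1 SAL and at 0.18 to 0.67 in F1 PNO (log2 -1.16, limma adjusted p 0.249). In F2, Dlx5, a homeobox gene of forebrain interneurons, was at 21.1 to 23.96 in SAL, 14.2 to 17.3 in PNO and 13.5 to 20.1 in IUO, lower than SAL by log2 values of -0.50 (limma adjusted p 0.343) and -0.51 (limma adjusted p 0.461). Ddc, the decarboxylase that makes dopamine, was at 1.64 to 2.41 in F2 SAL, 0.86 to 1.16 in PNO and 0.45 to 1.56 in IUO (-0.92 and -0.87). Ascl2, a helix-loop-helix factor of the Igf2 and Cdkn1c region, was at 1.28 to 1.94 in F2 SAL and 0.53 to 1.21 in IUO (-0.84). None of these had a limma adjusted p under 0.05, and the F2 pairs share the same SAL libraries.

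The IGF system, through which IGF2 acts, comprised 13 genes of which 12 were tested. In F1 PNO against SAL, 3 of 12 had an unadjusted p under 0.05 with groups that did not overlap, beside 13.9% of all genes by that p and 8.27% by overlap. The receptor gene Igf1r was at 1.56, 1.47, 1.41 and 1.84 FPKM in SAL and at 0.89, 0.94, 1.14 and 0.79 in PNO (log2 -0.69, SE 0.19, limma adjusted p 0.236). The insulin receptor gene Insr was lower in PNO (log2 -0.36, limma adjusted p 0.293), and the ligand gene Igf1 was higher, at 6.38, 7.91, 3.47 and 4.16 in PNO and 2.78 to 3.39 in SAL (log2 0.70, limma adjusted p 0.283). Igf1r and Igf1 also differed between F1 IUO and F1 PNO in the opposite direction (log2 0.74 and -0.74), a comparison that shares the PNO libraries. The binding protein gene Igfbp6 was the only IGF gene past that p in F2, lower in PNO than in SAL by a log2 difference of -1.07 (limma adjusted p 0.462) and higher in IUO than in PNO by 0.75 (limma adjusted p 0.684). No IGF gene passed adjustment.

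Of 9 genes that maintain imprints, 8 had a row and 7 were tested. Between exposures in these fits, Arid4b, which encodes a chromatin binding protein, was the only one past an unadjusted p of 0.05, at 3.60, 2.15, 1.99 and 2.88 FPKM in F1 SAL and at 1.88, 0.70, 1.14 and 1.74 in F1 PNO (log2 -0.96, SE 0.32, limma adjusted p 0.270), and 0.79 higher in F1 IUO than in PNO. Between the generations, 5 of 7 had an unadjusted p under 0.05, all lower in F2, beside 12.8% of all genes lower in F2 at that p. They were Zfp57 and Zfp445, zinc finger proteins that bind methylated imprinting control regions (log2 -0.36 and -0.60), Arid4a (-0.36), Arid4b (-1.10) and Smchd1 (-0.32), named after the values were seen. The lowest limma adjusted p among them was 0.134. Mean Zfp57 and Zfp445 were lower in F2 in each exposure. In PNO, however, mean Arid4b was 1.365 FPKM in F1 and 1.55 in F2, Smchd1 3.13 and 3.39, and Arid4a 5.45 and 5.43. In SAL and IUO the means of these genes were lower in F2. Arid4b ranged from 0.06 to 3.32 in F2 PNO and from 0.13 to 2.53 in F2 IUO. None of these genes was followed through other settings or with libraries left out.

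The genes whose pattern over the 24 libraries was most like each member, with group means removed and among 13677 genes of at least 1 FPKM on average, differed between members. For Igf2 they were Slc13a4 (r = 0.93), Fmod (0.90) and Igfbp2 (0.90), an ion transporter, an extracellular matrix protein and an IGF binding protein. For Dlk1 they were Pomc (0.87), Capn6 (0.86) and Gpc4 (0.81), and the relation of Dlk1 to Pomc was r = 0.82 over 24 libraries and r = 0.20 without F2 PNO replicate 4. For Cdkn1c they were Stk39 (0.83), Cdkn1a (0.82), the gene of a related cyclin kinase inhibitor, and Aard (0.82). For Plagl1 they were Nedd4 (0.91), Ecpas (0.91) and Senp6 (0.88), and for Peg3 Sash1 (0.90), Abat (0.87) and AABR07039334.1 (0.87). For Mest they were Akt2 (0.90), Sept9 (0.90) and Erlin2 (0.89), for Ndn Prmt2 (0.86), AABR07035832.1 (0.81) and LOC687679 (0.80), and for Snrpn Tmem74b (0.73), Ppia (0.73) and Lin52 (0.70). These are descriptions of likeness over 24 libraries whose neighbouring tissue varied and whose depth is unknown.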

How the data were processed

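RNA-Seq values of 24 NAc samples (4 per group, from separate litters) were used as deposited. The unit was FPKM, which the authors computed per gene with StringTie on merged transcriptomes and deposited for each library, and the submitters' processing notes also name HISAT2, SAMtools and edgeR. The genome build and read counts are not given in the sources used here, so edgeR was not run, and values were not rescaled between libraries. FPKM can split reads of overlapping genes and keeps no depth.

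A gene was kept where no fewer than 4 libraries of the comparison (12 of 24 for F2 against F1) reached an FPKM of 0.1. Kept genes were tested as log2(FPKM + 0.1) with limma 3.58.1 (lmFit, eBayes with trend) in R 4.3.3, two-sided, with Benjamini-Hochberg adjustment over all genes tested. Fold changes on this scale are smaller than the true change for low genes. Single genes and scores were also tested by exact two-sided permutation over 35 splits, and correlations by 100000 permutations. A marker score is the mean of log2(FPKM + 0.1) over the listed genes with a row. The procedure was tested on simulated data. Python 3.11.15, pandas 2.3.3, numpy 2.4.6, scipy 1.17.1, statsmodels 0.14.6 and matplotlib 3.10.9 were used.

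The genes and lists were chosen with earlier results of these data known. All 10 genes were named, and a gene and comparison was given with its statistics where its unadjusted p was under 0.05 or the groups did not overlap. Of the other lists, up to 3 genes per comparison past both criteria were named, and per gene the 3 most similar genes. Named on an unadjusted p under 0.05 alone, with groups that overlapped, were Ppp1r9a and Igfbp6 in F1 IUO against SAL. So were Igf1, Igf1r and Arid4b in F1 IUO against PNO, and Igfbp6 in F2 IUO against PNO. Snurf was named for the transcript it shares with Snrpn. The pituitary genes and the imprint maintenance genes of F2 against F1 are marked as chosen after their values were seen. Alternatives were a pseudocount of 1, no filter, an FPKM of at least 1, upper-quartile rescaling, 1 fit of all libraries, covariates of Y-linked and tissue genes, a replicate block and leaving out each library. No tissue covariate was run for F2 against F1. Thalamic and striatal covariates, the pituitary genes and list counts without F2 PNO replicate 4 were added after the data were seen. Replicate numbers carry no stated pairing and did not pair the samples.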

Additional observations from a re-analysis of the deposited data

Results flagged for a closer look

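In 4 of the 48 gene and group sets of 4 libraries, 1 library stood apart, its gap to the nearest other library being a larger share of the whole range than Dixon's 95% critical value allows. Chance alone flags about 1 in 20 groups, or 2.4 of 48. The gap was 0.982 for Dlk1 in F2 PNO, where replicate 4 was highest, 0.948 for Dlk1 in F2 IUO, where replicate 3 was highest, and 0.86 for Dlk1 in F2 SAL, where replicate 4 was lowest. The remaining set was Ndn in F2 PNO, where replicate 1 was highest at 0.949. Gh1 was at 4682 FPKM in F2 PNO replicate 4, which holds pituitary transcripts.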

How the results depend on the processing

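The values followed were those of 14 gene and comparison pairs by rule and 2 Dlk1 pairs in F2 added after seeing the data, giving 355 values under alternatives, of which 285 kept direction and side of an unadjusted p of 0.05, 66 kept direction but missed it, 1 gained it and 3 reversed. No member passed adjustment under any alternative (lowest limma adjusted p 0.0765). The reversed values were of Dlk1 in F2: PNO against SAL was -0.23 with the choroid plexus covariate, and leaving out each library gave -0.46 to 0.90, against 0.51. IUO against PNO gave -1.20 to 0.16 when each library was left out, against -0.80, and with the Y-linked covariate it was -2.30, the 1 value that gained the threshold. F2 PNO replicate 4 alone turned both signs.

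The number of members of 8 with an unadjusted p under 0.05 moved as follows. For F1 PNO against SAL it was 4, and 2 with the Y-linked covariate, 0 with the hypothalamus covariate, 0 with all 24 libraries in 1 fit, 0 with the thalamus covariate and 1 with the striatal covariate. For F1 IUO against PNO it was 2, and 0 with the hypothalamus covariate, 4 with choroid plexus, 1 with meninges, 0 with all 24 libraries and 1 with the striatal covariate. For F2 IUO against SAL it was 1, and 2 with upper-quartile rescaling or the Y-linked covariate. For F2 PNO against SAL it was 2, and 0 with all 24 libraries and 1 with the striatal covariate. For F2 IUO against PNO it was 1, and 0 with upper-quartile rescaling and 2 with the Y-linked or hypothalamus covariate. The generation difference of IUO against PNO went from 0 to 1 with the Y-linked covariate. Leaving out each library gave 0 to 1 for F1 IUO against SAL, 0 to 3 for F1 PNO against SAL, 1 to 3 for F1 IUO against PNO, 1 to 2 for F2 IUO against SAL, 0 to 2 for F2 PNO against SAL, 1 to 2 for F2 IUO against PNO and 0 to 1 for the generation differences of PNO against SAL and of IUO against PNO. The number of all genes past that p moved with the setting too. In F1 IUO against SAL it was 679 of 17380, then 391 with the Y-linked and 1257 with the hypothalamus covariate, with 0 of 8 members each time. The share of all genes is not given beside each count above, so these counts are not read as results about the members. The cause of these moves was not tested.

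Replicate numbers did not pair the samples: of 24 same-number pairs within a generation, 6 had a correlation of deviations over 0.1 (range -0.33 to 0.20) and 6 matched their own number best. With a replicate block the count for F1 PNO against SAL was 3, with Mest missing the threshold, and Plagl1 missed it in F1 IUO against PNO. Other counts were as in the fit without it. Depth is unknown, 4 libraries a group limit the precision, and the sex of the pups is not labelled.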
